A study of Mus musculus with 24 samples.

Results

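Interferon-stimulated genes were followed in the livers of 24 female mice that differed in genotype and diet, with 4 mice to each of 6 combinations. The set held 38 genes, taken as the rows of the deposited count table whose gene name equalled 1 of 38 listed symbols, out of 55335 genes in that table. All 38 passed the filter on low counts that left 13281 genes for testing. WT mice were of the strain B6129SF2/J. The 3xTg mice were 3xTg-AD animals, a model of Alzheimer's disease with human APP and tau transgenes that carry disease mutations and a mutant presenilin allele. As background, these transgenes sit under a Thy1 promoter cassette that is active mainly in neurons. Mice entered the diets at 3 months of age and stayed on them for 6 months. The control diet (C) took 70% of its energy from carbohydrate, 20% from long-chain triglyceride and 10% from protein, at 4.1 kcal/g. The ketogenic diet (KD) had no carbohydrate, with 90% long-chain triglyceride and 10% protein at 6.7 kcal/g. The medium-chain diet (MCT) was like the control diet, but 10% of energy came from medium-chain and 10% from long-chain triglyceride. Each genotype was 1 line, so genotype cannot be told apart from other differences between the 2 lines.

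Interferons are secreted proteins that warn cells of infection. Type I interferons bind the receptor made of Ifnar1 and Ifnar2, and interferon gamma binds that of Ifngr1 and Ifngr2. JAK kinases at these receptors phosphorylate STAT proteins. A complex that holds Stat2 and Irf9 then binds the interferon-stimulated response element (ISRE), and the gamma-activated site (GAS) is the element of the interferon gamma response. In liver, both hepatocytes and the resident macrophages, the Kupffer cells, respond. The members fall into 8 groups by role: 4 transcription factors, 4 sensors of RNA and other nucleic acids, 4 IFIT proteins, 4 OAS proteins, 4 genes of ubiquitin-like systems, 9 other antiviral effectors, 6 immunity GTPases, and 3 genes that prepare peptides for MHC class I.

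Libraries held 12009432 to 20108831 counts on genes. Levels are given as CPM, the count of a gene scaled to a common library total, with TMM factors between libraries. All 7 listed hepatocyte markers were present in every group, at summed levels of 80937 to 184156 CPM. Several livers stood apart. Exocrine pancreas transcripts summed to 1184 to 20168 CPM in WT KD replicates 1, 2 and 4, WT MCT replicate 3 and 3xTg MCT replicates 3 and 4, against at most 31.6 CPM in the other 18 livers. Replicates 2 and 3 of 3xTg KD had neutrophil transcripts at a summed 73.5 and 73.9 CPM. The livers numbered 4 also differed from the others of their groups: 173 tested genes (1.30%) were highest and 163 (1.23%) lowest in the liver numbered 4 in all 6 groups, while other numbers gave 1 to 13 such genes. Median exon length was 2066 bases for the first and 8251 for the second, against 4295.5 over all tested genes. Among members, Bst2 alone was highest in number 4 in all 6 groups. Bulk RNA cannot separate fewer cells of a type from less RNA per cell.

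The promoters below are those of the members that carried the differences described later, and of Isg15, a classical type I target, for comparison. Each is the 250 bases before the gene start in RefSeq on GRCm38.p6, read 5′ to 3′ on the strand of the gene, with matches in capitals. The search used TTTCNNTTTC for the ISRE, which reads GAAANNGAAA on the other strand, and TTCNNNGAA for the GAS, which reads the same on both strands, and matches of the 2 motifs could overlap. The Igtp window is chr11:58199306-58199555, the Irgm2 window is chr11:58214727-58214976 (both plus strand), and that of Irgm1 is chr11:48871421-48871670 (minus strand). The Stat2 window is chr10:128270248-128270497 and the Ubd window chr17:37193642-37193891 (plus strand). The windows of Ifi44 and Isg15 are chr3:151749911-151750160 and chr4:156200819-156201068 (minus strand).
Igtp: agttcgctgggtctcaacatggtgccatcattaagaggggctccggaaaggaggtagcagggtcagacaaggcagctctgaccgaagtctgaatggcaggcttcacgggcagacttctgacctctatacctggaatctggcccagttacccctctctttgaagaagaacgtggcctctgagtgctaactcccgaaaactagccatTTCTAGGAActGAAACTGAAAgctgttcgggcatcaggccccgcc
Irgm2: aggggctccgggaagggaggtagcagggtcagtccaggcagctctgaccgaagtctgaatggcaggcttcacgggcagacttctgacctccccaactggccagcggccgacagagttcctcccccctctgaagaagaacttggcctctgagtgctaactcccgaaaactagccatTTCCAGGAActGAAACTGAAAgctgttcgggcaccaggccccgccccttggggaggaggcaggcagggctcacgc
Irgm1: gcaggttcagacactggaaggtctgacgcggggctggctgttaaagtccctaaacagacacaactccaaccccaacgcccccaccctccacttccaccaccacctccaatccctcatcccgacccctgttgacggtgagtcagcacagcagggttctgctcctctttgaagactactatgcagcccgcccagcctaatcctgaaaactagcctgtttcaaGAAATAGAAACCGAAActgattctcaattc
Stat2: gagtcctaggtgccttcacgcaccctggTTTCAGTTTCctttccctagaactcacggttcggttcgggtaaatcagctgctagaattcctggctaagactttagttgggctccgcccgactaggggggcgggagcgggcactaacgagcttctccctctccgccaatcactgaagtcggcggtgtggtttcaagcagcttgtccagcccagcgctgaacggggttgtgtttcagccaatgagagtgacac
Ubd: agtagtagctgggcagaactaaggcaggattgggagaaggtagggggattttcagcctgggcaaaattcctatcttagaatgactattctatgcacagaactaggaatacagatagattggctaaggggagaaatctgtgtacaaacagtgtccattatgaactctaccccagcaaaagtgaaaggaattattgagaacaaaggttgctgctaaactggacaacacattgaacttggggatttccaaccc
Ifi44: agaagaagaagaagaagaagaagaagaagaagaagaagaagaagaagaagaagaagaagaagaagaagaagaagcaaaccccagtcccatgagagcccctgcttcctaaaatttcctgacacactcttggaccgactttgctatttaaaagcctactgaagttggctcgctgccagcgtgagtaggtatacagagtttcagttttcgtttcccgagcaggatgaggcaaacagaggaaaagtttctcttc
Isg15: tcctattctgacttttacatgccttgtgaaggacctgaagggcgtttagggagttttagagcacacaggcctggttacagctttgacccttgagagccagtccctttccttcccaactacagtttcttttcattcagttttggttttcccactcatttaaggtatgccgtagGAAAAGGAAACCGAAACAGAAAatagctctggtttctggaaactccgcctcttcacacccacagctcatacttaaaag
Igtp and Irgm2 each held 1 GAS and 1 ISRE match close together, with the ISRE 34 and 64 bases before the gene start and the GAS 45 and 75 bases before it. Their windows shared a run of 55 identical bases. Irgm1 held 2 overlapping ISRE matches, Isg15 held 3, and Stat2 held 1 at 222 bases before its start. The Ubd and Ifi44 windows held neither string of letters. Of the 38 members, 31 had an entry, and 14 of these 31 (45.2%) held an ISRE match, against 3.46% of 27025 genes with a promoter of that length. A GAS match was found in 8 of 31 (25.8%), against 8.13% of all, and both in 5 of 31 (16.1%), against 0.459%. Matches are a description of sequence and not binding sites.

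Levels per length of transcript, the mean CPM of 24 livers divided by exon length in kilobases, ran over 2 orders of size among the members. Bst2, which tethers budding virions to the cell surface, was highest at 37.2 CPM per kilobase. The GTPases Igtp (16.0) and Irgm2 (14.0), Parp9 (12.8), a partner of the ubiquitin ligase Dtx3l, and Irgm1 (8.88) followed. Oas2, which makes the second messenger that activates RNase L, was lowest at 0.1403. The members varied more between livers of 1 group than most genes: their median within-group SD was 0.41 on the log2(CPM + 0.5) scale, against 0.31 for 10814 tested genes in the same range of mean CPM. Ubd (0.83), Igtp (0.69), Usp18 (0.64) and Zbp1 (0.63) had the widest spread among members.

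**Figure D1:**
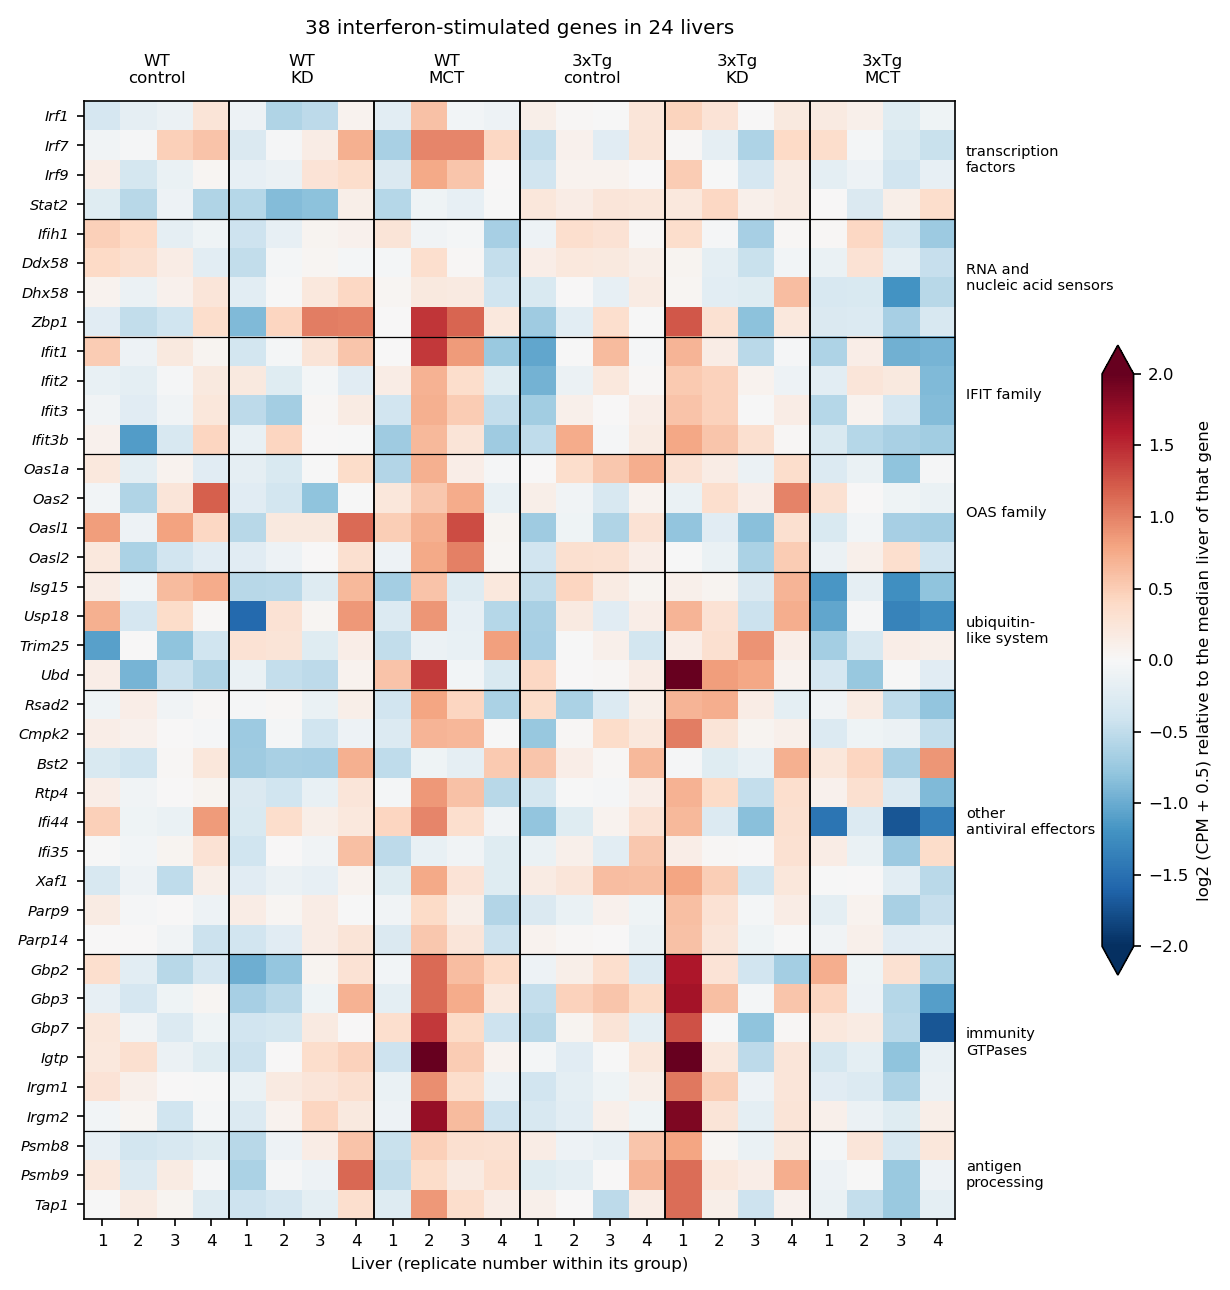
Each square shows 1 of 38 members (rows, grouped by role) in 1 of 24 livers (columns, grouped by genotype and diet) as log2 of CPM + 0.5 relative to that gene's median liver. WT MCT replicate 2 and 3xTg KD replicate 1 stand out as red columns, and together hold the highest value of 24 of 38 members.

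Most of the high values came from 2 livers in different groups. 3xTg KD replicate 1 held the highest value of 13 members and WT MCT replicate 2 that of 11, together 24 of 38 (63.2%), against 7.91% of all tested genes. These 2 livers were picked because they held the most highest values of members, so the excess is partly fixed by that choice. Over all tested genes, 3xTg MCT replicates 3 (9.61%) and 4 (8.66%) held the most highest values. The 24 members included all 6 immunity GTPases and all 4 IFIT genes, but 0 of the 4 OAS genes. In 3xTg KD replicate 1 the GTPases were at a median of 2.76 times, and the antigen-processing genes at 1.91 times, the median of the other 3 livers of the group. The IFIT genes were at 1.42 times and the OAS genes at 0.83 times. In WT MCT replicate 2 the order of these ratios was different. The IFIT genes were at 2.50 times, the ubiquitin-like genes at 2.28, the GTPases at 2.11, the OAS genes at 1.57 and the antigen-processing genes at 1.15. Such ratios also depend on the other 3 livers of each group. Levels were also taken as log2 of CPM + 0.5 relative to each gene's median over 24 livers. The GTPases then had the highest median in both, 1.64 in 3xTg KD replicate 1 and 1.28 in WT MCT replicate 2. In that order the IFIT genes were alike (0.63 and 0.70), while antigen-processing genes (1.11 and 0.47) and OAS genes (-0.07 and 0.71) differed. These were single livers, so differences between them have no replicate check.

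**Figure D2:**
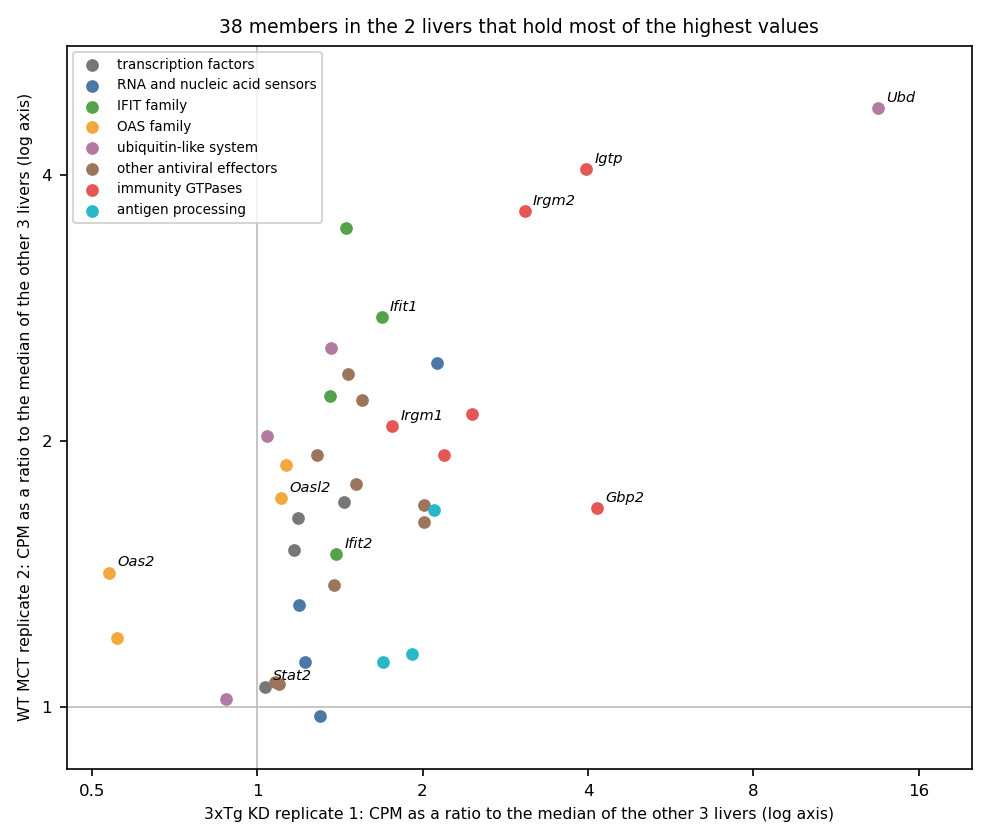
Points are the 38 members, coloured by role, at their CPM in 3xTg KD replicate 1 (x axis) and WT MCT replicate 2 (y axis) as a ratio to the median of the other 3 livers of the same group, on log axes. Ubd and Igtp were well above 1 on both axes, Gbp2 lay far to the right, and 2 OAS genes lay left of 1.

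Igtp, a GTPase that guards membranes against vacuolar pathogens, showed this most plainly. Its levels were 29.1, 31.6, 23.2 and 21.2 CPM in WT control livers, 18.4, 25.3, 32.2 and 34.8 on KD, and 18.7, 107, 35.8 and 26.5 on MCT, in the order of replicates 1 to 4. In 3xTg livers they were 24.5, 21.5, 24.9 and 29.3 on control diet, 116, 29.2, 17.3 and 29.9 on KD, and 19.5, 21.9, 14.2 and 22.6 on MCT. The other 22 livers reached at most 35.8 CPM. Irgm2, its neighbour on chromosome 11, stood at 156, 50.7, 37.0 and 51.1 CPM in 3xTg KD livers and 39.6, 144, 66.3 and 31.8 in WT MCT livers, with 66.3 the next highest value of all. The annotated spans of Igtp and Irgm2 overlap on the same strand, so reads in the shared part cannot be assigned with certainty. Of 53 other tested interferon-stimulated genes, 23 (43.4%) had their highest value in 1 of these 2 livers, against 7.91% of all tested genes, and most did not. Of 5 tested receptor genes 0 did. Among genes outside the set, Cxcl9, Tgtp1 and Iigp1, chosen after their values were seen, were also highest there: Cxcl9, an interferon gamma-induced chemokine, at 89.0 and 80.2 CPM, Tgtp1 at 9.44 and 6.08, and Iigp1 at 725 and 712.

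Cell markers in these livers were mixed. The 12 T and NK cell markers all had counts in both and summed to 16.3 CPM in WT MCT replicate 2, the highest of 24 livers, and to 9.15 in 3xTg KD replicate 1, where the 6 groups ran from 5.88 to 16.3 CPM. Kupffer cell and macrophage markers, 12 of 12 present, summed to 642 and 602 CPM, ranks 5 and 7 of 24, in a range of 419 to 1138. Plasmacytoid dendritic cell markers, 4 of 6 present with Cox6a2 and Klk1 at 0, summed to 6.00 and 23.5 CPM, ranks 13 and 4 of 24, in a range of 2.59 to 46.8. The highest sums of this list were all in livers with pancreas transcripts: WT MCT replicate 3 (46.8), WT KD replicate 2 (39.5) and 3xTg MCT replicate 4 (27.9). Pancreas markers were among the lowest, at 7.55 and 5.10 CPM. B and plasma cell markers ranked 3 of 24 in WT MCT replicate 2, at 23.84 CPM, and 24 in 3xTg KD replicate 1, at 4.12 CPM, with Mzb1 at 0 in the latter. Hepatocyte markers ranked 12 and 23, at 147098 and 81124 CPM. Ptprc, a marker of all leukocytes, stood at 29.2 and 30.6 CPM, ranks 6 and 5 of 24. Neutrophil markers summed to 3.70 and 9.43 CPM, ranks 15 and 4. Ngp and Ly6g were at 0 in the former liver and Camp, Mmp8 and Ly6g in the latter. Endothelial markers ranked 12 and 17, at 256 and 241 CPM. The part of these cells in the values was not tested.

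By mean level over 4 livers, 3xTg KD was the highest of the 6 groups for 20 members and WT MCT for 11, and 3xTg MCT was the lowest for 21 and the highest for 0. By the median liver of each group, which a single liver moves less, 3xTg KD and WT MCT were each highest for 15 members, and 3xTg MCT was again lowest, for 20. Within 3xTg MCT, replicates 1 to 4 held the lowest value of 0, 0, 10 and 7 of 38 members. Over all tested genes they held 2.50%, 3.60%, 8.79% and 7.71% of the lowest values. Relative to each gene's median liver, the members' median log2 levels were -0.13, -0.05, -0.44 and -0.45 in that order. Replicates 3 and 4 are those with pancreas transcripts. Tests followed edgeR's quasi-likelihood fit of all 24 livers, with Benjamini-Hochberg adjustment over all 13281 genes. A member is called when its adjusted p is under 0.05. Fold changes are log2 differences with their standard error (SE).

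**Figure D3:**
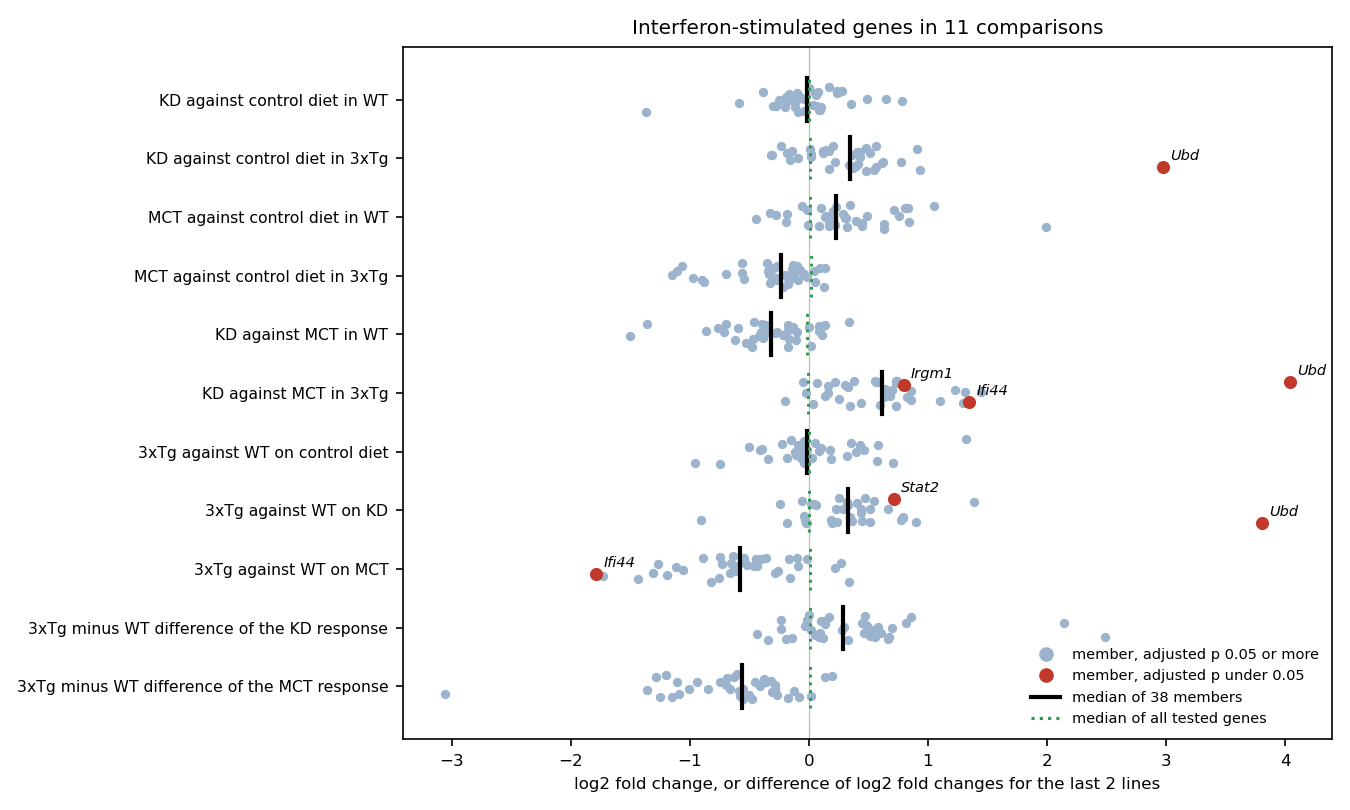
Each line is 1 of 11 comparisons, and each point the log2 fold change of 1 of 38 members (for the last 2 lines, a difference of log2 fold changes); named red points have an adjusted p under 0.05, the black bar is the median of the members and the green dotted line the median of all tested genes. The black bar is farthest right for KD against MCT in 3xTg (0.61) and farthest left for 3xTg against WT on MCT (-0.58).

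KD differed from control diet in carbohydrate, long-chain triglyceride and energy density together, so their effects cannot be told apart. In WT livers the set showed little shift: 19 members lay above 0 and 19 below, with a median of -0.02. In 3xTg livers 31 of 38 lay above 0, with a median of 0.35 against 0.01 for all tested genes, and 1 member, Ubd, was called. All 6 GTPases and all 4 IFIT genes lay above 0 in 3xTg, with medians of 0.59 and 0.37. In WT, 0 of 38 members were called by edgeR and 0 by DESeq2, against 0.648% of all tested genes, and 2 passed an unadjusted p of 0.05, against 12.3%. In 3xTg, Ubd was the 1 member called higher, where 2.85% of all genes were called higher and 5.39% in either direction. Before adjustment, 5 members were higher at p under 0.05, against 9.97% of all genes. Cell markers also differed in the 3xTg comparison. All 3 tested neutrophil markers (median 3.06) and Ptprc, a marker of all leukocytes (1.48), were called higher on KD, while 6 of 7 hepatocyte markers lay below 0 (median -0.53), 1 of them called. In 3xTg KD replicates 1 to 4, neutrophil markers summed to 9.43, 73.5, 73.9 and 4.15 CPM. Ptprc stood at 30.6, 86.4, 86.5 and 18.9 CPM. The 3xTg control livers ranged over 3.80 to 5.46 and 17.7 to 24.0 CPM. In the same KD livers the members' median log2 level, relative to each gene's median liver, was 0.63, 0.24, -0.17 and 0.21. The part of these cells in the shift of the members was not tested.

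Ubd encodes FAT10, a ubiquitin-like protein that marks targets for the proteasome and responds to interferon gamma and tumour necrosis factor. Its levels were 0.768, 0.457, 0.469 and 0.556 CPM in 3xTg control livers, and 15.2, 1.20, 1.13 and 0.503 in 3xTg KD livers. In WT they were 0.547, 0, 0.207 and 0.125 on control diet, 0.365, 0.187, 0.161 and 0.503 on KD, and 0.906, 2.00, 0.421 and 0.274 on MCT. In 3xTg MCT livers they were 0.251, 0.0646, 0.447 and 0.317. All but 4 livers were under 1 CPM, and the KD and control ranges in 3xTg overlapped at replicate 4. The called rise was 2.97 ± 0.83 (adjusted p = 0.0375), with means of 4.52 ± 7.15 CPM (SD, n = 4) on KD and 0.562 ± 0.144 on control diet. It rested on 3xTg KD replicate 1: without that liver the estimate was 0.76 (adjusted p = 0.569), and the median of all members was 0.06. Leaving out 1 control liver at a time gave adjusted p values of 0.0731, 0.104, 0.0962 and 0.0821 for replicates 1 to 4.

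**Figure D4:**
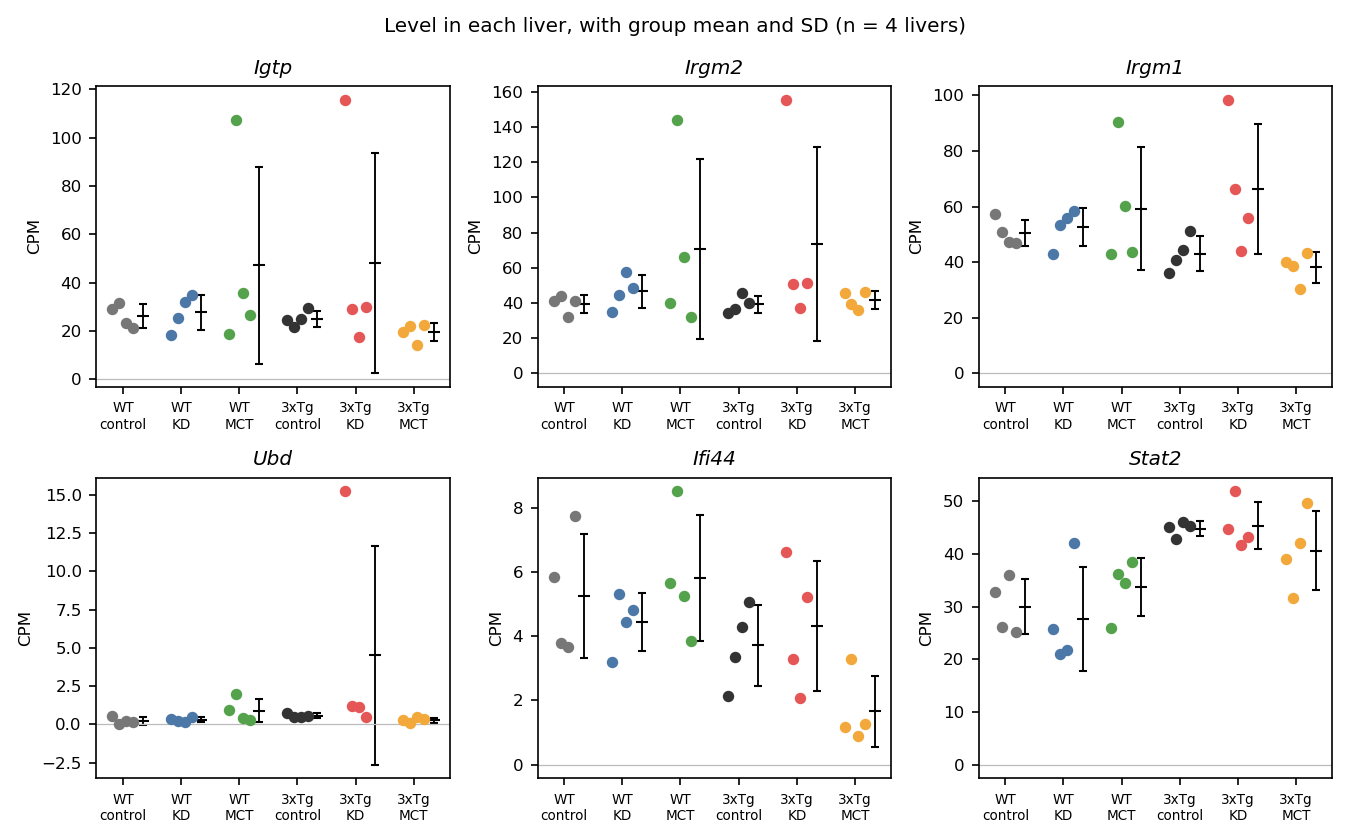
Each panel shows the CPM of 1 member in each of 24 livers by group (points), with the group mean and SD beside them (bars, n = 4). In Igtp, Irgm2 and Ubd single livers of WT MCT or 3xTg KD set the means, while the 4 3xTg control livers of Stat2 lay above all 4 WT control livers.

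Trim25, a ubiquitin ligase that activates the RNA sensor Ddx58 (RIG-I), had the smallest p among members for KD in WT. It stood at 22.3, 48.0, 27.3 and 36.0 CPM in WT control livers and 58.7, 57.0, 40.4 and 52.5 on KD, a difference of 0.64 ± 0.27 (adjusted p = 0.327). In 3xTg the values were 30.0, 47.7, 51.4 and 37.0 on control diet and 52.3, 59.7, 89.5 and 52.6 on KD, 0.61 ± 0.27 (adjusted p = 0.218). The KD range lay above the control range in 3xTg and overlapped it at WT KD replicate 3, yet neither difference was called. On MCT Trim25 stood at 34.0, 44.1, 43.2 and 85.0 CPM in WT and 29.8, 38.2, 52.7 and 51.6 in 3xTg. Oas2 was lower on KD in WT by the estimate, at 0.365, 0.280, 0.0806 and 0.503 CPM against 0.469, 0.169, 0.689 and 1.81, a difference of -1.36 ± 0.59 (adjusted p = 0.339). Oas2 had only 1 to 29 counts in a liver, and WT control replicate 4 held its highest level. In 3xTg it stood at 0.419, 0.779, 0.612 and 1.51 CPM on KD and 0.598, 0.457, 0.313 and 0.556 on control diet. On MCT it stood at 0.679, 0.963, 1.19 and 0.412 in WT and 0.752, 0.517, 0.447 and 0.423 in 3xTg.

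KD against MCT in 3xTg gave the widest separation of the members. Of 38, 35 lay above 0, with a median of 0.61 against -0.01 for all genes, and 3 were called higher: Ubd, Irgm1 and Ifi44. Every role group had a median above 0, from 0.21 for the transcription factors to 0.81 for the GTPases and 1.34 for the ubiquitin-like genes. Called higher were 3.59% of all genes, and 8.02% in either direction. At an unadjusted p of 0.05, 17 of 38 members were higher, against 11.3% of all genes. In 6 members the 2 groups did not overlap and KD was higher, against 6.42% of all genes: Ubd, Irgm1, Ifit3b, Dhx58, Psmb9 and Cmpk2.

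Irgm1, a GTPase of autophagy and defence against intracellular bacteria, stood at 98.5, 66.4, 44.0 and 55.9 CPM on KD and 39.9, 38.6, 30.5 and 43.3 on MCT in 3xTg livers. The KD livers were all higher, the lowest by less than 1 CPM. The rise was 0.80 ± 0.22 (adjusted p = 0.0293). The other groups stood between 36.1 and 60.3 CPM apart from WT MCT replicate 2, at 90.3. Ifi44, an interferon-induced antiviral protein, stood at 6.64, 3.30, 2.07 and 5.22 CPM on KD and 1.17, 3.29, 0.894 and 1.27 on MCT, a rise of 1.35 ± 0.40 (adjusted p = 0.0386). The groups overlapped at 3xTg MCT replicate 2, which was far above the other 3 MCT livers. Ubd rose by 4.04 ± 0.91 (adjusted p = 0.00945). Its groups did not overlap, but by a narrow margin: the lowest KD liver stood at 0.503 CPM and the highest MCT liver at 0.447.

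These 3 calls depended on single livers. Without 3xTg KD replicate 1 no member was called, with estimates of 1.82 for Ubd (adjusted p = 0.108), 0.54 for Irgm1 (0.139) and 1.06 for Ifi44 (0.139). The median of the members was then 0.38. Irgm1 was also not called without 3xTg KD replicate 2 (adjusted p = 0.0598) or 3xTg MCT replicates 1 (0.0502) or 3 (0.0918). Nor was Ifi44 called without 3xTg KD replicates 2 (0.0503) or 4 (0.0729), or 3xTg MCT replicates 1 (0.0989), 3 (0.115) or 4 (0.0992). A fit of both groups alone ended the calls of Irgm1 (0.0862) and Ifi44 (0.129). Without all 6 livers with pancreas transcripts 0 members were called, with a median of 0.40. Leukocyte and hepatocyte markers also differed in this comparison. Ptprc ranged from 18.9 to 86.5 CPM on KD and from 21.1 to 44.8 on MCT. Hepatocyte markers summed to 80937 to 103414 CPM on KD and 138013 to 183586 on MCT. B and plasma cell markers, all 6 present in both groups, summed to 4.12 to 16.4 CPM on KD and 22.4 to 38.4 on MCT without overlap, and 3 of 5 tested were called lower (median -1.63). Of 3 tested neutrophil markers 1 was called higher (median 2.00). Their part in the result was not tested.

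In WT the same comparison had the opposite sign for most members. Here 31 of 38 lay below 0, with a median of -0.32, and 0 were called by edgeR or DESeq2, against 0.181% of all genes. At an unadjusted p of 0.05, 3 members passed (Cmpk2, Oas2 and Gbp2), against 7.24%. Cmpk2, a mitochondrial nucleotide kinase, had the smallest p among members, at 2.01, 3.55, 2.66 and 3.38 CPM on KD and 2.94, 6.15, 6.03 and 3.64 on MCT, -0.69 ± 0.29 (adjusted p = 0.577). Its high values were WT MCT replicates 2 and 3. It stood at 4.06, 3.88, 3.65 and 3.56 CPM in WT control livers, 1.96, 3.73, 4.85 and 4.31 in 3xTg control livers, 7.97, 4.43, 3.81 and 3.96 on 3xTg KD and 2.92, 3.42, 3.31 and 2.48 on 3xTg MCT. Without WT MCT replicate 2 the median of the members was -0.05.

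MCT was set against control diet to show the effect of replacing part of the long-chain fat. In WT livers 30 of 38 members lay above 0, with a median of 0.23, and in 3xTg livers 33 of 38 lay below 0, with a median of -0.24. The GTPases differed most in WT, with a median of 0.73, and the ubiquitin-like genes in 3xTg, with -0.98. In neither genotype was any member called by edgeR or DESeq2, and 0% of all tested genes were called. At an unadjusted p of 0.05, 5 members passed in WT, against 6.05% of all genes, and 6 in 3xTg, against 6.44%. Without WT MCT replicate 2 the WT median was 0.04.

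Oasl2, an OAS-like protein with ubiquitin-like domains, had the smallest p among members in WT. It stood at 3.62, 6.96, 8.42 and 4.05 CPM on MCT and 4.61, 2.36, 2.89 and 3.31 on control diet, 0.81 ± 0.29 (adjusted p = 0.739). On WT KD it stood at 3.29, 3.64, 3.95 and 5.03 CPM, and in 3xTg at 2.90, 5.02, 5.003 and 4.38 on control diet, 3.91, 3.54, 2.35 and 5.79 on KD and 3.59, 4.26, 5.09 and 2.91 on MCT, all below WT MCT replicate 2. Oas1a, which makes the same messenger as Oas2, had the smallest p in 3xTg and was the OAS gene with the highest level per length. It stood at 1.25, 1.42, 0.715 and 1.59 CPM on MCT and 1.62, 2.21, 2.58 and 2.99 on control diet in 3xTg, a difference of -0.89 ± 0.31 (adjusted p = 0.563) with no overlap. In the other groups Oas1a ranged from 0.906 to 2.96 CPM. In 4 members the 3xTg MCT livers all lay below the control livers, against 1.48% of all genes: Oas1a, Xaf1, Dhx58 and Ubd. The nearest MCT and control livers were close for Ubd (0.447 and 0.457 CPM) and Dhx58 (3.55 and 3.59 CPM). Isg15, the ubiquitin-like protein that is joined to targets during infection, stood at 0.668, 1.81, 0.625 and 1.004 CPM on MCT and 1.37, 3.04, 2.42 and 2.22 on control diet, -1.11 ± 0.41 (adjusted p = 0.643).

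The genotypes were compared on each diet. On control diet the set showed no common shift, with 17 members above 0 and 21 below and a median of -0.02. No member was called by edgeR or DESeq2, against 1.86% of all genes, and 3 passed an unadjusted p of 0.05 (Stat2, Xaf1 and Oasl1), against 11.9%. In 3 members the 3xTg livers all lay above the WT livers, against 4.36% of all genes: Stat2, Xaf1 and Psmb8. Xaf1, a pro-apoptotic partner of XIAP, stood at 3.16, 3.35, 4.53 and 4.45 CPM in 3xTg and 2.11, 2.53, 1.79 and 3.06 in WT, 0.70 ± 0.28 (adjusted p = 0.270). Psmb8, a catalytic subunit of the immunoproteasome, stood at 25.1, 21.01, 20.4 and 33.5 CPM against 20.0, 17.4, 17.9 and 19.0.

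Stat2, the STAT that carries type I interferon signals with Irf9, had a higher mean in 3xTg on every diet. On control diet it stood at 45.2, 42.9, 46.0 and 45.4 CPM in 3xTg and 32.8, 26.1, 36.0 and 25.3 in WT. On KD it stood at 44.7, 52.0, 41.7 and 43.3 in 3xTg and 25.8, 21.1, 21.8 and 42.2 in WT. On MCT it stood at 39.0, 31.7, 42.2 and 49.7 in 3xTg and 25.97, 36.3, 34.4 and 38.4 in WT. The 3xTg control livers were close together and all above the WT ones, while on KD 1 WT liver reached the 3xTg range and on MCT the ranges overlapped. The differences were 0.58 ± 0.19 on control diet (adjusted p = 0.132), 0.71 ± 0.19 on KD (adjusted p = 0.0207) and 0.27 ± 0.19 on MCT (adjusted p = 0.698). Between diets within a genotype, Stat2 differed by -0.28 to 0.17. The differences between the genotypes in its KD and MCT responses were 0.13 ± 0.26 and -0.31 ± 0.26, neither called.

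On KD 30 of 38 members lay above 0 in 3xTg against WT, with a median of 0.32, and 2 were called higher, Ubd and Stat2. All 6 GTPases were above 0, with a median of 0.72. Among all genes, 4.27% were called higher and 8.49% in either direction. At an unadjusted p of 0.05, 6 members were higher, against 12.1% of all genes, among them Irf1 (0.51), Cmpk2 (0.79), Oas2 (1.39) and Gbp3 (0.90). Ubd rose by 3.81 ± 0.91 (adjusted p = 0.0119). Without 3xTg KD replicate 1 Ubd was at 1.59 (adjusted p = 0.159) and the median of members at 0.08. Stat2 was not called without 3xTg KD replicate 2 (adjusted p = 0.0708) or WT KD replicates 2 (0.0842) or 3 (0.0848), nor without the 6 livers with pancreas transcripts (0.0693) or both 3xTg KD livers with neutrophil transcripts (0.185), nor in a fit of both groups alone (0.0821). All 3 tested neutrophil markers (median 3.88) and Ptprc (1.99) were called higher in 3xTg. The neutrophil sum and Ptprc were both highest in 3xTg KD replicates 2 and 3. All 12 Kupffer cell markers lay above 0 (median 0.35, 1 called), 6 of 7 hepatocyte markers lay below 0 (median -0.73, 3 called lower), and 16 of 17 pancreas markers were called lower. Their part in the result was not tested.

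On MCT the members lay lower in 3xTg: 35 of 38 were below 0, with a median of -0.58 against 0.01 for all genes, and Ifi44 was called. The ubiquitin-like genes had a median of -1.08 and the GTPases one of -0.79. Among all genes, 1.04% were called lower and 1.74% in either direction. At an unadjusted p of 0.05, 16 of 38 members were lower, against 5.64% of all genes, and in 3 the groups did not overlap, against 2.48%: Ifi44, Oasl1 and Zbp1. Ifi44 stood at 5.66, 8.52, 5.26 and 3.84 CPM in WT MCT livers, above the 3xTg MCT values given above, a difference of -1.79 ± 0.40 (adjusted p = 0.0173). On the other diets it stood at 5.86, 3.80, 3.65 and 7.74 CPM in WT control livers, 3.20, 5.32, 4.43 and 4.81 on WT KD, and 2.13, 3.35, 4.30 and 5.07 in 3xTg control livers. The call was lost without 3xTg MCT replicates 1 (adjusted p = 0.0710), 3 (0.0644) or 4 (0.0668), without WT MCT replicate 2 (0.0692), and without the 6 livers with pancreas transcripts (0.322), which include 2 of these 3 3xTg livers. The median of the members was -0.35 without WT MCT replicate 2 and -0.34 without the pancreas livers. In a fit of both groups alone Ifi44 was not called (adjusted p = 0.118). T and NK cell markers summed to 7.13 to 16.3 CPM in WT MCT and 7.62 to 9.37 in 3xTg MCT. Neutrophil markers summed to 2.52 to 4.18 and 7.82 to 19.6 CPM, without overlap. B and plasma cell markers summed to 10.2 to 23.84 and 22.4 to 38.4 CPM, with 5 of 5 tested above 0 in 3xTg (median 0.97). Of 12 Kupffer cell markers 11 lay above 0 and 1 was called higher. Their part in the result was not tested.

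Whether the genotypes responded differently to a diet was tested as a difference of responses. For KD, 29 of 38 members lay above 0, with a median of 0.29, which was 0.049 without 3xTg KD replicate 1. For MCT, 35 of 38 lay below 0, with a median of -0.56, which was -0.37 without WT MCT replicate 2. No member was called by edgeR or DESeq2 in either, against 0.00753% of all genes for KD and 0% for MCT. Before adjustment, 1 member passed for KD, against 14.6% of all genes, and 6 for MCT, against 2.16%. The smallest p for KD was that of Oas2 (2.14 ± 0.79, adjusted p = 0.209). Its counts were low, 1 to 29 in a liver, and other settings gave estimates of 0.83 to 4.0. For MCT the smallest p was that of Xaf1 (-1.15 ± 0.40, adjusted p = 0.99998), which stood at 2.26, 5.04, 3.44 and 2.26 CPM in WT MCT livers and 2.76, 2.78, 2.32 and 1.74 in 3xTg MCT livers. On KD Xaf1 stood at 2.28, 2.52, 2.42 and 2.95 CPM in WT and 5.17, 4.08, 2.02 and 3.33 in 3xTg. Comparisons that share a group share its livers: 3xTg KD replicate 1 entered all 4 comparisons that use 3xTg KD, and WT MCT replicate 2 all 4 that use WT MCT.

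The remaining leading genes of each role gave no called difference. Bst2 stood at 25.2, 23.6, 31.8 and 36.6 CPM in WT control livers, 18.9, 19.8, 19.7 and 51.4 on KD and 22.0, 29.4, 27.7 and 45.1 on MCT. In 3xTg it stood at 46.2, 34.5, 31.7 and 49.2 on control diet, 30.9, 26.4, 28.1 and 51.7 on KD and 36.7, 42.6, 19.8 and 57.9 on MCT. The last value in every group is that of the liver numbered 4, and it was the highest each time. Ifih1 (MDA5), a sensor of long double-stranded RNA and the sensor with the highest level per length, stood at 70.6, 67.1, 44.6 and 47.6 CPM in WT control livers, 37.9, 45.4, 52.7 and 53.96 on KD and 60.7, 48.2, 49.5 and 31.97 on MCT. In 3xTg it stood at 47.0, 64.3, 62.4 and 51.6 on control diet, 65.0, 50.04, 31.96 and 51.5 on KD and 51.4, 67.6, 39.3 and 30.4 on MCT, and every group overlapped every other. Ifit3, the IFIT gene with the highest level per length, stood at 7.26, 6.501, 7.30 and 9.05 CPM in WT control livers, 5.20, 4.57, 7.82 and 8.62 on KD and 5.74, 12.9, 11.2 and 5.35 on MCT. In 3xTg it stood at 4.52, 8.22, 7.74 and 8.41 on control diet, 11.6, 10.7, 7.58 and 8.56 on KD and 5.01, 8.07, 5.99 and 3.96 on MCT. Its high livers were again WT MCT replicates 2 and 3 and 3xTg KD replicates 1 and 2. Ifit3b is a close copy of Ifit3, and counts of the pair, like those of the Gbp and Oas families, may be split between copies. Psmb8, beside its control values above, stood at 15.2, 20.99, 24.9 and 33.6 CPM on KD and 16.5, 31.5, 28.2 and 28.1 on MCT in WT, and 39.3, 23.1, 20.5 and 25.8 on KD and 22.0, 26.9, 18.05 and 26.5 on MCT in 3xTg. Psmb9 and Tap1 overlap on opposite strands. Other members also overlap annotated genes, among them Irf9 with Rnf31 on the same strand. Rtp4 overlaps Masp1, Parp9 overlaps Dtx3l and Irf7 overlaps Phrf1, each on opposite strands.

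The other members are given by their range over 24 livers, and none was called in any comparison. Among the transcription factors, Irf1 ranged over 15.6 to 36.4 CPM, Irf7 over 6.79 to 22.1 and Irf9, the DNA-binding partner of Stat2, over 14.9 to 33.7. Among the sensors, Ddx58 ranged over 19.0 to 35.6, its regulator Dhx58 over 1.70 to 7.23 and Zbp1, a sensor of Z-form nucleic acid, over 2.37 to 13.8. Ifit1 ranged over 3.41 to 21.04, Ifit2 over 3.93 to 13.3 and Ifit3b over 0.507 to 3.22, and Oasl1 over 0.659 to 4.63. Usp18, the protease that removes Isg15 from targets and damps the type I receptor, ranged over 0.548 to 5.19. The effectors Rsad2 (viperin), Rtp4, Ifi35, Parp9 and Parp14 ranged over 3.65 to 11.9, 4.49 to 16.3, 7.24 to 19.0, 39.7 to 95.3 and 26.3 to 54.2 CPM in that order. The guanylate-binding GTPases Gbp2, Gbp3 and Gbp7 ranged over 8.67 to 54.9, 5.13 to 37.7 and 8.88 to 82.1. Psmb9, another immunoproteasome subunit, and Tap1, part of the peptide transporter, ranged over 4.11 to 16.7 and 6.79 to 26.1.

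The wider pathway was measured in the same livers. Of 21 interferon ligand genes, 20 had 0 counts in every liver, which allows up to 3 counts, or 0.250 CPM in the shallowest library. Ifng had 15 counts in 11 livers, at most 3 in 1 liver, 3xTg KD replicate 1. WT MCT replicate 2 had 0, and WT control replicate 4 and WT MCT replicate 4 had 2 each. Of 5 tested receptor genes, 1 was called, in a comparison where 8.49% of all genes were: Ifnar2, the signalling chain of the type I receptor, stood at 22.0, 24.7, 27.8 and 29.4 CPM on KD in 3xTg and 30.3, 44.0, 44.4 and 53.5 in WT. It fell by 0.73 ± 0.16 (adjusted p = 0.00780) in 3xTg against WT on KD. Ifnar1 (22.9 to 37.2 CPM over 24 livers), Ifngr1 (14.7 to 39.3) and Ifngr2 (15.3 to 37.1) were not called in any comparison.

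Of 8 tested JAK-STAT genes, Ptpn6, a phosphatase that restrains JAK signalling and is abundant in leukocytes, was called higher in 3xTg KD livers against control diet (0.64, adjusted p = 0.0273) and against WT KD (0.58, adjusted p = 0.0337), where 2.85% and 4.27% of all genes were called higher. It stood at 33.9 and 34.1 CPM in 3xTg KD replicates 2 and 3, the livers with neutrophil transcripts, and 22.8 and 21.2 in replicates 1 and 4. Among 14 sensors and adaptors, Tlr8 (1.25, adjusted p = 0.0467, against control diet in 3xTg), Traf3 (0.78, adjusted p = 0.0130, against MCT in 3xTg) and Irf5 (1.03, adjusted p = 0.0298, against WT on KD) were each called higher once, where 2.85%, 3.59% and 4.27% of all genes were, and their highest values were in the same 2 livers. Of 53 other tested interferon-stimulated genes, 2 were called higher and 2 lower for KD against control diet in 3xTg, against 5.39% of all genes in either direction. For KD against MCT in 3xTg, 7 were higher and 2 lower, against 8.02%, and for 3xTg against WT on KD, 3 were higher and 0 lower, against 8.49%. Gbp6, a guanylate-binding GTPase, rose on KD against control diet (1.94, adjusted p = 0.0347) and MCT (2.33, adjusted p = 0.0119) in 3xTg, with 12.9 CPM in 3xTg KD replicate 1 and 2.76, 1.60 and 2.45 in the others. Gbp10, of the same family, rose on KD against MCT in 3xTg (2.95, adjusted p = 0.0208), with 14.2 CPM in that liver and 2.28, 0.8002 and 1.20 in the others. Parp12, an antiviral ADP-ribosyltransferase, rose against MCT in 3xTg (0.69, adjusted p = 0.0175) and against WT on KD (0.57, adjusted p = 0.0438). It stood at 40.3, 25.1, 24.0 and 33.2 CPM on 3xTg KD and 19.7, 23.1, 16.0 and 17.1 on 3xTg MCT, with no overlap. Ifitm2 and Ifitm3, which block viral fusion, went the other way, although both are interferon-stimulated. Ifitm3 stood at 127, 117, 85.8 and 142 CPM on KD, 159, 262, 231 and 215 on control diet and 188, 250, 223 and 270 on MCT in 3xTg. It fell by 0.87 (adjusted p = 0.0432) against control diet and by 0.98 (adjusted p = 0.0195) against MCT, with no overlap in either. Ifitm2 fell by 0.90 (adjusted p = 0.0385) against control diet and fell by 1.29 (adjusted p = 0.00381) against MCT.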

How the data were processed

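Liver RNA libraries (poly(A) mRNA, KAPA mRNA HyperPrep) were measured in 24 mice. The authors deposited 1 table of read counts per gene and library, and per the submitters' processing notes Trimmomatic, STAR and GRCm38 were used. Versions, the strand direction of counting and whether molecular identifiers were collapsed were not given in any source used here. Entries that name no gene held 21.5% to 30.1% of counts and were left out. The 4 libraries of a group came from separate animals.

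Counts were tested with edgeR 4.0.16 in R 4.3.3: TMM scaling, a filter on low counts by group, 1 quasi-likelihood fit of 6 group means over 24 libraries with 18 residual degrees of freedom, 11 contrasts and Benjamini-Hochberg adjustment over 13281 genes. The fit was tested on simulated data. Alternatives were DESeq2 1.42.0, other scalings and filters, the compared groups alone, a replicate block and leaving out libraries.

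The members and all lists were chosen with earlier results of these data known. Values by liver are given for each member called in any contrast, for the member with the smallest p where none was called, and for the member of each role with the highest level per length. Pathway genes are named where called, up to 5 per list, with the receptors in any case; 1 further gene of that rule is not reported here. Irgm2 (for its values in 2 livers), Isg15, Cxcl9, Tgtp1 and Iigp1 were named outside this rule, after values were seen. Promoters came from RefSeq (GRCm38.p6), and Parp14, Parp9, Oas2, Usp18, Rtp4, Zbp1 and Dhx58 had no entry.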

Additional observations from a re-analysis of the deposited data

Results flagged for a closer look

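Within groups of 4 livers, 11 of 228 member and group pairs (4.82%) held 1 liver far from the other 3 by Dixon's criterion, and chance flags about 1 in 20 groups. In 3xTg KD replicate 1, 4 members were far above the rest: Ubd at 15.2 CPM (others 0.503 to 1.20), Cmpk2 at 7.97 (3.81 to 4.43), Igtp at 116 (17.3 to 29.9) and Irgm2 at 156 (37.0 to 51.1). Irf1 was at 36.4 CPM in WT MCT replicate 2, where the others were at 20.8 to 23.1. In 3xTg MCT replicate 2, Usp18 was at 2.52 CPM (0.715 to 1.002) and Ifi44 at 3.29 (0.894 to 1.27). In 3xTg MCT replicate 3, Zbp1 was low at 2.86 CPM (3.75 to 3.88), as was Psmb9 at 4.11 (6.71 to 7.23). Ddx58 was low at 19.0 CPM in WT KD replicate 1 (26.3 to 27.7), and Bst2 was high at 51.4 in WT KD replicate 4 (18.9 to 19.8).

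In 3 members all livers of the genotypes lay on opposite sides of their control means: 1 of 38 on KD, against 5.5% of all tested genes, and 2 of 38 on MCT, against 0.919%. For Cmpk2 on KD the 3xTg livers were above and the WT livers below, with a difference of responses of 0.82 ± 0.40 on the log2 scale (SE, edgeR adjusted p = 0.352). On MCT the 3xTg livers were below and the WT livers above for Zbp1 (-1.36 ± 0.61, adjusted p = 0.99998) and Ubd (-3.05 ± 1.49, adjusted p = 0.99998). None of these differences passed the test after adjustment.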

How the results depend on the processing

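Scaling by library size alone raised the median of all genes in comparisons with 3xTg KD. For KD against control diet in 3xTg it gave 5 called members and a median of 0.62 (all genes 0.31), for KD against MCT in 3xTg 27 and 1.03 (0.43), for 3xTg against WT on KD 18 and 0.72 (0.43), and for the difference of KD responses a median of 0.68 (0.45). In that order, the members' medians above that of all genes were 0.32, 0.60, 0.29 and 0.23. For KD against MCT in 3xTg, DESeq2 called 9 members, and the groups compared alone gave 1. The groups alone gave 0 for KD against control diet in 3xTg, for 3xTg against WT on KD and on MCT. Ubd fell below the count filter in the fits of 3xTg KD with 1 other group alone and was not tested there. Leaving out the 6 livers with pancreas transcripts gave 0 for KD against MCT in 3xTg and for the genotypes on KD and MCT. Leaving out both livers with neutrophil transcripts gave 1 for the genotypes on KD. After the data were seen, leaving out the 6 livers numbered 4 was added, with 4 members called for the genotypes on KD and 0 on MCT, as was a factor for number 4, with 6 for KD against MCT in 3xTg. With a replicate block, KD against control diet in 3xTg gave 0 called (Ubd 2.26, adjusted p = 0.0708) and KD against MCT in 3xTg 5. The labels do not say that numbers pair animals: over 60 same-number pairs the median correlation of deviations was 0.015 (-0.51 to 0.45), and 8 of 24 livers correlated best with their own number. Leaving out 1 liver at a time gave 0 to 1 called and medians of 0.064 to 0.42 for KD against control diet in 3xTg, 0 to 6 called for KD against MCT in 3xTg, 1 to 4 for the genotypes on KD and 0 to 1 on MCT. Without 3xTg MCT replicate 2, 6 were called for KD against MCT, and without WT KD replicate 4, 4 for the genotypes on KD. Counted as refits of 1 named member in 1 comparison, 24 lost a call under such omissions and 104 were unchanged. Under the other settings 14 lost a call and 133 were unchanged. Every call of a member was lost in at least 1 omission, and no direction reversed.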
